A study of Daucus carota subsp. sativus with 2 samples.

Results

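The transcripts described here are those whose protein name in the deposited count table is ferredoxin or ferredoxin-NADP reductase. The name rule found 10 of 19838 transcript rows, made up of 8 ferredoxins and 2 reductases, under 9 gene names. Membership came from the names, but the family was put forward with its reads in the 2 libraries already known, so its values are a description and no test is attached to them.

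Poly(A)-selected RNA from untreated roots of Daucus carota subsp. sativus, the cultivated carrot, was sequenced in 1 library of a hybrid with orange roots and 1 library of the red Delhi carrot. The title of the study calls the orange carrot modified and the red one wild, and the labels give no age, root part or number of plants. With 1 library per variety there is no replicate error, and variety, plant and library cannot be told apart. The orange library held 7432754 reads and the red library 11310179. The median log2 fold of all 14868 measured transcripts was -0.06.

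Ferredoxins are small iron-sulfur proteins of plastids that carry single electrons. In leaves they are reduced by photosystem I in the light, and ferredoxin-NADP reductase passes the electrons on to make NADPH. In roots and other plastids without photosynthesis the reductase is known to run the other way: NADPH from the oxidative pentose phosphate pathway reduces ferredoxin, which then feeds nitrite reductase, glutamate synthase and other enzymes. In Arabidopsis and maize, leaves and roots use different isoforms of both proteins. The deposited names call both reductases chloroplastic and do not say which carrot row is a leaf or a root form.

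Both libraries held almost the same number of ferredoxin reads, but from different transcripts. The 8 ferredoxin rows summed to 6578 reads in the orange library and 6582 in the red library. After scaling by median-of-ratios size factors the sum was 1.14-fold higher in orange, with a 95% counting interval of 1.0995 to 1.18. This small excess depended on the scaling. The reductase sum did not follow it: the 2 rows had 1529 reads in orange and 17959 in red, which is 10.3-fold lower in orange (9.79 to 10.9). Ferredoxins took 0.0885% of all reads in orange and 0.0582% in red, and reductases 0.0206% in orange and 0.159% in red. Intervals here are exact Clopper-Pearson intervals on the pair of counts and cover counting error only.

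**Figure D1:**
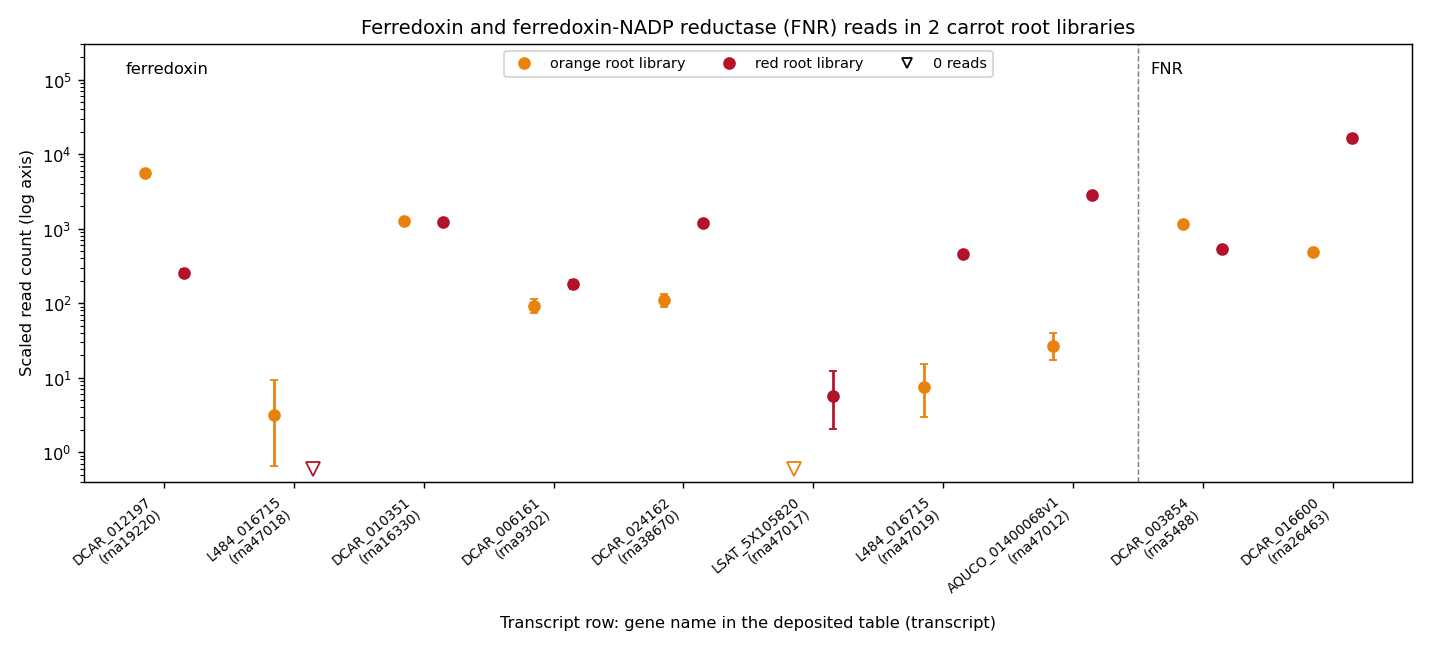
Reads of each row divided by the library's size factor, on a log axis, for the orange library (left point) and the red library (right point); bars are 95% exact Poisson intervals, and open triangles mark 0 reads. DCAR_012197 and DCAR_003854 are higher in orange, DCAR_010351 is level, and AQUCO_01400068v1, with 25 reads in orange and 3026 in red, has the widest gap among the measured rows.

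Rows with a mean scaled count of 10 or more were taken as measured, and a row was called different if its ratio was at least 2-fold with a counting interval that left out equality. Of the 10 rows 8 were measured. Among the 6 measured ferredoxins 1 was higher in orange, 3 were lower in orange and 2 were under 2-fold. Of the reductases 1 was higher in orange and 1 lower. Over all 14868 measured transcripts the same rule called 24.4% higher in orange and 30.6% higher in red. The members were proposed from this very contrast, and nothing is read from their counts against these shares. At 4-fold or more 1 member was higher in orange and 4 were lower, where the rule called 12.6% and 19.8% of all measured transcripts.

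DCAR_012197 was the ferredoxin row with the most reads in the orange root library. It had 5175 reads in orange and 272 in red. That is 21.7-fold higher in orange (19.2 to 24.6), and 574 of the 14868 measured transcripts (3.86%) had a higher log2 fold. It supplied 78.7% of all ferredoxin reads in orange (77.7 to 79.7) and 4.13% in red (3.66 to 4.64). No other measured ferredoxin was higher in orange by 2-fold.

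DCAR_010351 was present at like levels in both. It had 1179 reads in orange and 1314 in red, a scaled ratio of 1.02 with an interval of 0.944 to 1.11. Its share of the ferredoxin reads was 17.9% in orange (17.0 to 18.9) and 19.96% in red (19.0 to 20.95). DCAR_006161 had 86 reads in orange and 192 in red. It was 1.96-fold lower in orange (1.51 to 2.56), just short of the 2-fold limit, and under scaling by ribosomal protein transcripts it passed that limit.

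The other 3 measured ferredoxins were lower in orange. DCAR_024162 had 103 reads in orange and 1284 in red, 10.9-fold lower in orange (8.95 to 13.5). AQUCO_01400068v1 had 25 reads in orange and 3026 in red, 106-fold lower in orange (71.9 to 165). The transcript rna47019, named L484_016715, had 7 reads in orange and 488 in red, 61.2-fold lower in orange (29.5 to 153). The intervals of the last pair overlap, while that of DCAR_024162 lies below both. With under 10 reads in orange, rna47019 passed the minimum only through its reads in red. AQUCO_01400068v1 alone gave 46.0% of ferredoxin reads in red (44.8 to 47.2), against 0.38% in orange (0.246 to 0.561). DCAR_024162 gave 1.57% in orange and 19.5% in red, and rna47019 0.106% in orange and 7.41% in red.

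The 2 ferredoxin rows that were not measured were nearly silent. The transcript rna47018, a second row named L484_016715, had 3 reads in orange and 0 in red, and no fold is given at that depth. The transcript rna47017, named LSAT_5X105820, had 0 reads in orange and 6 in red. A count of 0 allows up to 3 reads in that library.

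Of the 8 ferredoxin rows, 4 carry close transcript numbers: rna47012 (AQUCO_01400068v1), rna47017, rna47018 and rna47019. These are also the 4 rows whose gene names lack the DCAR prefix. Together they held 35 reads in orange and 3520 in red, or 0.532% and 53.5% of the ferredoxin reads of the orange and the red library. The sources used here do not say whether they are separate genes or isoforms of 1 gene. If their sequences are near-identical, reads could have been split among them in counting, so their sum is firmer than any single row. The sum was 88.3-fold lower in orange (63.4 to 127). These rows were grouped after their values were seen.

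**Figure D2:**
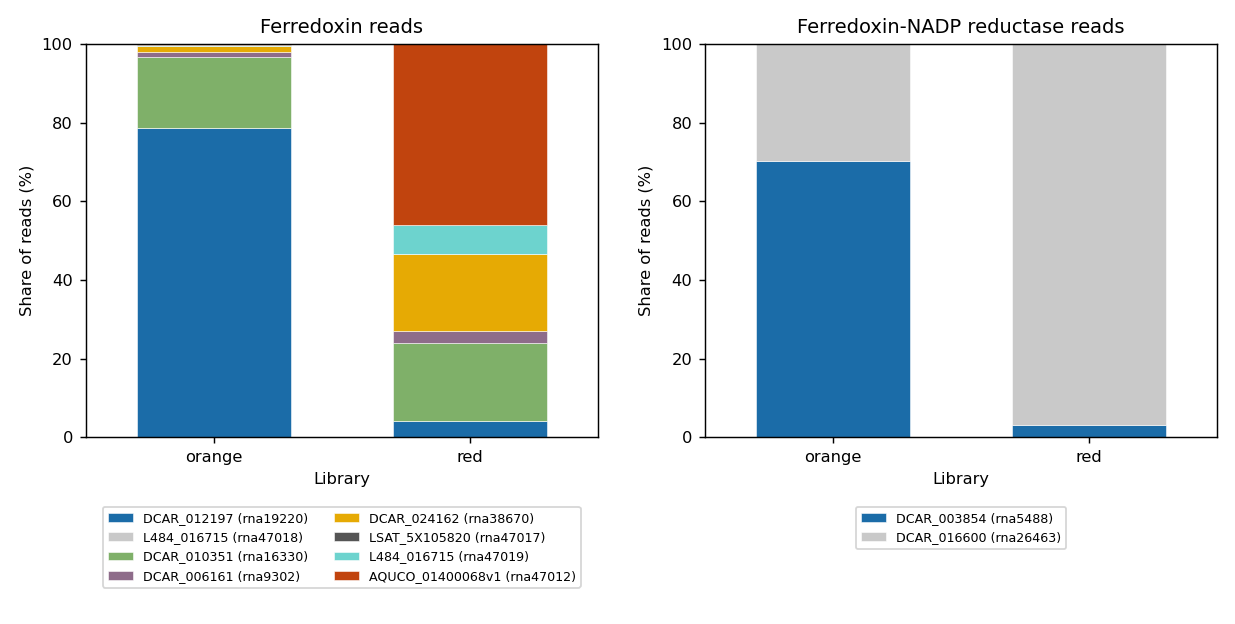
Share of ferredoxin reads (left panel) and of ferredoxin-NADP reductase reads (right panel) contributed by each row, in percent, in the orange and the red library. DCAR_012197 makes up 78.7% of ferredoxin reads in orange and 4.13% in red, and DCAR_016600 29.6% of reductase reads in orange and 96.8% in red.

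The reductases, which move electrons between ferredoxin and NADPH, also exchanged places. DCAR_016600 had 453 reads in orange and 17393 in red, 33.7-fold lower in orange (30.7 to 37.1). A lower log2 fold was seen for 853 measured transcripts (5.74%). DCAR_003854 had 1076 reads in orange and 566 in red, 2.16-fold higher in orange (1.95 to 2.40), just inside the 2-fold limit. Its interval begins under 2-fold, and with ribosomal protein scaling the call was lost (log2 0.90). For this row 3329 measured transcripts (22.4%) had a higher log2 fold. DCAR_003854 made up 70.4% of reductase reads in orange (68.0 to 72.7) and 3.15% in red (2.90 to 3.42). The exchange was thus uneven: DCAR_016600 differed by far more than DCAR_003854, so the reductase sum followed the direction of DCAR_016600.

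**Figure D3:**
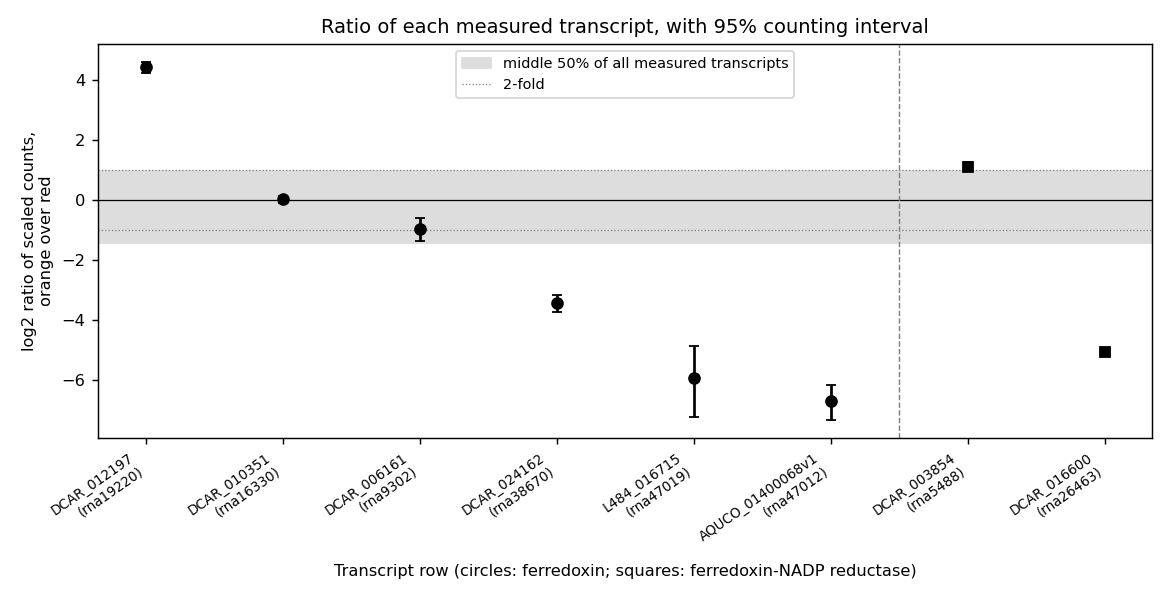
Log2 ratio of scaled counts, orange over red, for the 8 measured rows, with 95% counting intervals; the band holds the middle 50% of all 14868 measured transcripts and dotted lines mark 2-fold. DCAR_012197 (21.7-fold higher in orange) and 4 rows that are at least 10.9-fold lower in orange lie outside the band, DCAR_003854 just above it, and DCAR_010351 and DCAR_006161 inside.

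Reads of one row per read of another within a library do not depend on how libraries are scaled. Transcript lengths are not in the files used here, so such a ratio is of reads, not molecules, and only its change between libraries can be read. Over all rows there were 0.232 reductase reads per ferredoxin read in orange (0.22 to 0.246) and 2.73 in red (2.65 to 2.81), 11.7-fold fewer in orange.

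Each reductase was set against each measured ferredoxin, which gives 12 pairs. The change of a pair's ratio is the difference between the log2 folds of its 2 rows, so it follows from the values above and is given as a description. For DCAR_016600 with rna47019 (L484_016715) there were 64.7 reductase reads per ferredoxin read in orange (31.1 to 162) and 35.6 in red (32.6 to 39.1), a 1.82-fold difference with overlapping intervals. With 7 reads of rna47019 in orange, this pair cannot be ranked against the next ones. DCAR_016600 against DCAR_024162 had 4.398 reads per ferredoxin read in orange and 13.55 in red, 3.08-fold fewer in orange. With AQUCO_01400068v1 there were 18.1 in orange and 5.75 in red, 3.15-fold more in orange. Against DCAR_012197 the same reductase had 0.0875 reads per read in orange (0.0793 to 0.0964) and 63.9 in red (56.7 to 72.35), 730-fold fewer in orange.

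For DCAR_003854 the smallest change of ratio was with DCAR_010351, the ferredoxin level in both libraries. There were 0.913 reads per read in orange (0.84 to 0.992) and 0.431 in red (0.39 to 0.476), 2.12-fold more in orange. Its ratio to DCAR_012197, the other member higher in orange, was 0.208 in orange (0.1945 to 0.222) and 2.08 in red (1.80 to 2.41), 10.01-fold fewer in orange. DCAR_012197 and DCAR_003854 thus shared a direction but not a size. With AQUCO_01400068v1 the ratio was 43.0 in orange and 0.187 in red, 230-fold more in orange. A likeness over 2 libraries rests on a single difference and gives no evidence that any pair works together.

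**Figure D4:**
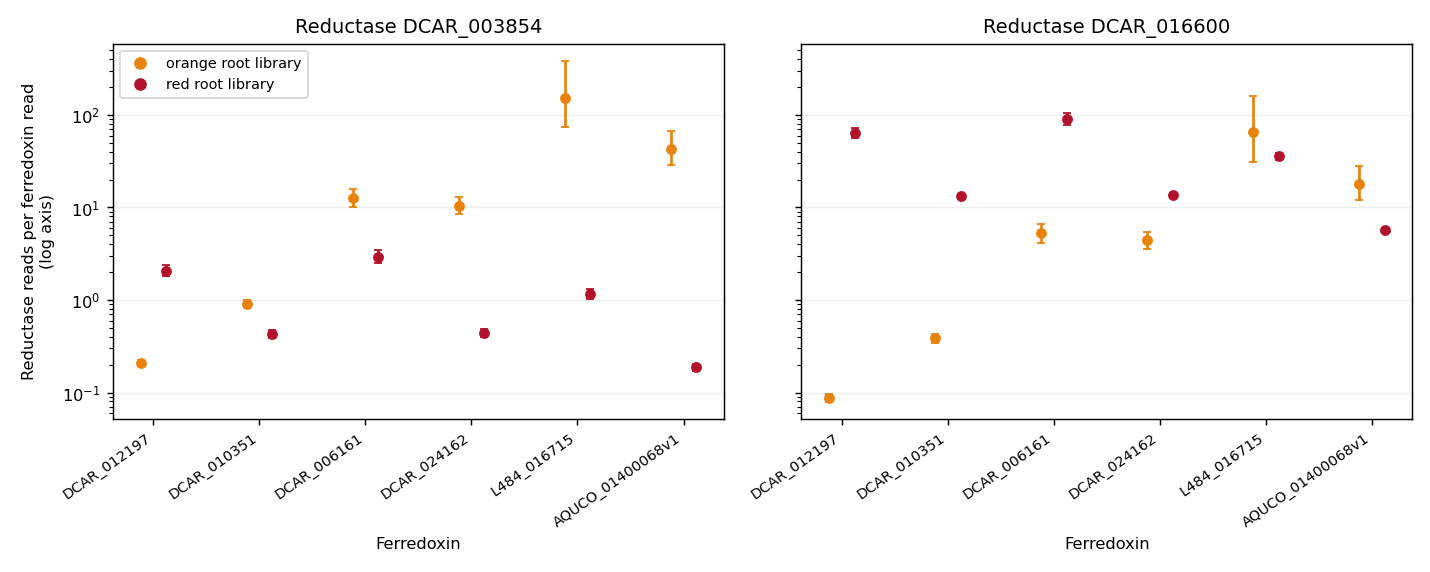
Reads of reductase DCAR_003854 (left panel) and DCAR_016600 (right panel) per read of each measured ferredoxin, on a log axis, in the orange library (left point) and the red library (right point), with 95% exact intervals. The points overlap within their intervals for DCAR_016600 with L484_016715 (64.7 in orange, 35.6 in red) and lie farthest apart for DCAR_016600 with DCAR_012197 (0.0875 in orange, 63.9 in red).

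The authors' deposited table gives its own p-values for these rows, although each variety has 1 library. In the authors' deposited table none (0) of the 10 rows has an adjusted p at or below 0.05, the smallest being 0.244 for AQUCO_01400068v1. The unadjusted p there is 0.00385 for AQUCO_01400068v1 and 0.00523 for rna47019, and only these 2 rows are at or below 0.05. The authors' deposited table classes DCAR_012197 and DCAR_003854 as up in orange, with unadjusted p of 0.0699 and 0.522. For DCAR_016600 the unadjusted p in the authors' deposited table is 0.187.

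Most transcripts that mark photosynthetic tissue differed in the same direction as the ferredoxins and the reductase called lower in orange. These markers are chlorophyll a-b binding proteins, the small chain of RuBisCO and photosystem subunits. Of 41 measured markers 3 were higher in orange and 33 lower in orange, and all 45 matched rows took 0.314% of reads in orange and 4.28% in red. Of the 45 rows 4 had no reads in orange, among them an RBCS row (0 in orange, 16192 in red), while none (0) lacked reads in red. Expansins and xyloglucan endotransglucosylases, which loosen growing cell walls, went the other way, with 20 of 30 measured rows higher in orange and 4 lower, and 1.68% of reads in orange against 0.0754% in red. Phloem markers had 1 of 6 measured rows higher in orange and 5 lower, and took 0.0497% of reads in orange and 0.312% in red. Whether the markers reflect tissue make-up was not tested. Nor was the part of these marker differences in the ferredoxin and reductase values. In bulk RNA, fewer cells of a type and less RNA per cell cannot be told apart.

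Most rows of the electron transport chain that leads through photosystem I to ferredoxin were lower in orange. Of 7 measured rows for photosystem I and thylakoid electron transport none (0) was higher in orange and 5 were lower, with a median log2 fold of -3.90 (-5.23 with a minimum mean of 50). The lists are not separate. Photosystem I subunit rows are also among the photosynthetic tissue markers above, and the cytochrome subunit DCAR_008695 is also in the iron-sulfur list below. Plastocyanin (DCAR_013894), the copper protein that feeds photosystem I, had 877 reads in orange and 37429 in red, 37.5-fold lower in orange (35.05 to 40.1). The photosystem I subunit V row T459_20985 was 14.98-fold lower (1406 reads in orange, 23985 in red). The subunit III row PSAF rna5398 was 9.63-fold lower (1998 in orange, 21917 in red). The 2 rows under 2-fold, a photosystem I apoprotein A1 (log2 fold 0.37) and the assembly factor Ycf3 (-0.49), had 23 to 37 reads in either library; their values were known when they were picked out.

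The pentose phosphate pathway, whose oxidative enzymes supply NADPH to the reductase in non-green plastids, was mixed. Of 4 measured rows of the pentose phosphate list 1 was higher in orange and 2 were lower. The median log2 fold was -0.83, and 0.29 with no minimum count, so its direction turned with that choice. The rows added were DCAR_026692 (1 read in orange, 0 in red) and DCAR_011291 (9 in orange, 0 in red). At such counts their log2 folds depend on the pseudocount. Glucose-6-phosphate dehydrogenase, which opens the oxidative pathway, had rows in both directions. DCAR_002962 had 519 reads in orange and 1282 in red, 2.17-fold lower in orange (1.96 to 2.41). DCAR_024658, chosen after its values were seen, had 1023 reads in orange and 536 in red, 2.17-fold higher in orange (1.96 to 2.42). Both intervals begin under 2-fold. Scaling shifts log2 folds by 0.42 with total counts and by -0.22 with ribosomal proteins. Either shift exceeds the margin of these rows over 2-fold, so both calls depend on the scaling. The files do not say which of these dehydrogenases is plastidial. 6-Phosphogluconate dehydrogenase DCAR_027741 was 1.45-fold lower in orange (893 reads in orange, 1474 in red). Transketolase DCAR_008552, which makes no NADPH itself and is shared with the Calvin cycle, was 15.8-fold lower in orange (2520 in orange, 45386 in red).

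Enzymes that take electrons from ferredoxin were mixed as well. The list found 6 measured rows, 1 higher in orange, 2 lower and 3 under 2-fold (median log2 fold -0.81). One of the 3, an arginine biosynthesis protein (DCAR_009253), was matched by name alone and does not use ferredoxin. Ferredoxin-thioredoxin reductase (catalytic chain, DCAR_011194), which hands electrons on to thioredoxins, had 127 reads in orange and 1279 in red, 8.84-fold lower in orange (7.37 to 10.7). No pairing with a ferredoxin is read from this fold. The acyl-carrier-protein desaturases, which make unsaturated fatty acids with ferredoxin as donor, were split. DCAR_031597 was 1.86-fold lower in orange (2694 reads in orange, 5699 in red) and DCAR_002144 1.20-fold lower (853 in orange, 1161 in red). DCAR_027519 had 204 reads in orange and 0 in red, at least 77.4-fold higher in orange against a floor of 3 reads in the red library; the 95% interval of its ratio begins at 62.4.

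Nitrogen assimilation is the main known user of root ferredoxin, but its ferredoxin-linked steps were not found. No row was named for nitrite reductase, ferredoxin-dependent glutamate synthase or sulfite reductase, and with most rows uncharacterized this says nothing of their levels. Among 6 measured rows of the wider list 1 was higher in orange, 2 lower and 3 under 2-fold. One of the 3 is again DCAR_009253, matched by name alone. The row called higher was nitrate reductase DCAR_014795, 3.42-fold higher in orange (39 reads in orange, 13 in red). Glutamine synthetase DCAR_011632 was 18.9-fold lower in orange (10.1 to 39.9), with 10 reads in orange and 215 in red. Both were picked out after their values were seen. Nitrate reductase DCAR_014289, which makes nitrite, was 1.79-fold higher in orange (1.5004 to 2.14), with 330 reads in orange and 210 in red. A further nitrate reductase row, DCAR_014288, had 12 reads in orange and 17 in red. It was 1.24-fold lower in orange with an interval that held equality (0.56 to 2.86), and was named with its values known. Cytosolic glutamine synthetase GLN1 was 2.62-fold lower in orange (8593 in orange, 25661 in red). Its margin over 2-fold is smaller than the log2 shift of 0.42 with total-count scaling.

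The list for iron-sulfur clusters, the cofactor of ferredoxin, held few rows that differed by 2-fold. Iron-sulfur cluster assembly protein DCAR_026140 had 2913 reads in orange and 2760 in red, 1.20-fold higher in orange (1.14 to 1.27). Of 6 measured rows in the list none (0) was higher in orange, 2 were lower and 4 under 2-fold. The lower ones were a cytochrome subunit of the thylakoid (DCAR_008695, 271 reads in orange, 16130 in red), matched by name alone, and the cytosolic assembly factor DCAR_020747 (0 in orange, 27 in red). DCAR_020747 was named after its values were seen, and it passed the minimum only through its reads in red. Succinate dehydrogenase subunit DCAR_021751, also matched by name alone, was 1.36-fold lower in orange (344 in orange, 534 in red).

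**Figure D5:**
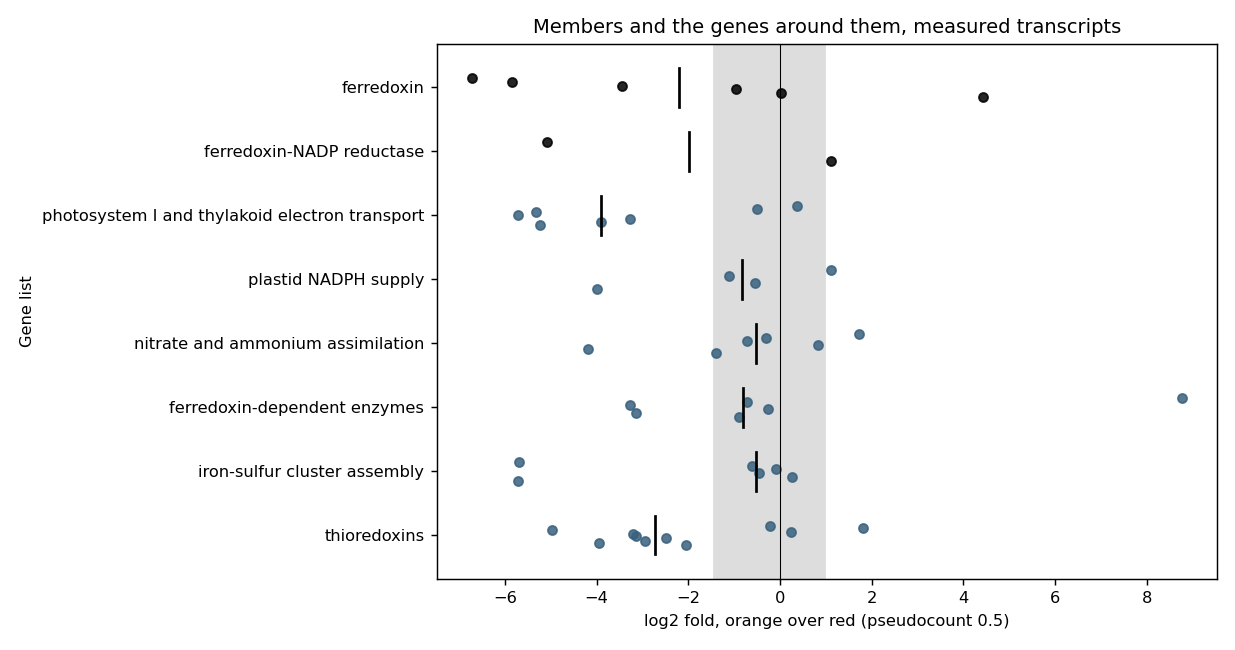
Log2 fold, orange over red, with a pseudocount of 0.5, of each measured row of the ferredoxins, the reductases (black points) and the lists around them (blue points); black bars are list medians and the band holds the middle 50% of all measured transcripts. The ferredoxins span -6.71 to 4.43, while 5 of 7 thylakoid rows lie below the band. The point at 8.77 is DCAR_027519 with 0 reads in red, whose place depends on the pseudocount.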

How the data were processed

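The authors deposited read counts per transcript with protein and gene names. FastQC, cutadapt, HISAT, HTSeq and DESeq are named, without roles or versions, in the submitters' processing notes; their settings, the build and the annotation are not stated in those notes. The deposited normalised counts are a signal equal to the count times 1 constant per library, 1.07 for orange and 0.937 for red. The authors' comparison tables give a fold (ratio, orange over red), its log2 and a p-value with and without adjustment.

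Of 19838 rows, 16121 were uncharacterized or unnamed, so name lists see only the other 3717. None (0) of the 9 member gene names matched the RefSeq gene table, so no coordinates are given. Size factors by median of ratios were 0.937 for orange and 1.07 for red. Log2 folds are orange over red with a pseudocount of 0.5; ratios have no pseudocount. Rows needed a mean scaled count of 10. Intervals are 95% exact Clopper-Pearson; reads carry no molecular identifiers. A ratio against 0 is a bound at 3 counts. No test across samples was made, since each variety has 1 library.

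Members, lists and rules were chosen with earlier results of these data known. All members were named, and the 3 rows of highest mean in a list could be named. So could list rows with 0 reads in 1 library and at least 100 in the other. Such rows of the tissue marker and ribosomal protein lists were left unnamed, apart from RBCS. For any other gene the text says that its values were seen first. The 2-fold rule and intervals were tried on simulated counts with Poisson error only. Those counts hold no spread between plants, so they cannot show whether a call would recur in other plants. Alternatives were total-count, TMM (edgeR 4.0.16) and ribosomal protein scaling, other pseudocounts, minimums and thresholds, and sums per gene name. Python 3.11.15, pandas 2.3.3, numpy 2.4.6 and scipy 1.17.1 were used.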

Additional observations from a re-analysis of the deposited data

How the results depend on the processing

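Relative to median-of-ratios scaling, total-count scaling shifted all log2 folds by 0.42 toward orange, ribosomal protein scaling by -0.22, and TMM by less than 0.01. The share of orange among all called transcripts was 44.4%, and 57.8% with total-count and 37.1% with ribosomal protein scaling. The log2 fold of the ferredoxin sum was 0.19, 0.60 with total-count scaling and -0.030 with ribosomal protein scaling, so its direction is not settled. The reductase sum was at -3.37, -2.95 with total-count scaling and -3.58 with ribosomal protein scaling. Members higher in orange numbered 2, but 1 with ribosomal protein scaling, where DCAR_003854 was at log2 0.90, and 1 at a 4-fold threshold. Members lower in orange numbered 4 or 5 under every alternative run. DCAR_010351 was at 0.45 with total-count scaling and -0.19 with ribosomal protein scaling. The ferredoxin of highest count in each library was also left out, DCAR_012197 in orange and AQUCO_01400068v1 in red. Reductase reads per ferredoxin read were then 1.09 in orange and 5.05 in red, against 0.232 and 2.73 with all rows. Since a different row was left out in each library, 1.09 and 5.05 cannot be compared with each other. No member called at 2-fold changed sign. Among list medians, the pentose phosphate one turned to 0.29 with no minimum count, through added rows with 0 reads in red. The photosystem I one was -5.23 with a minimum mean of 50. No paired analysis was possible because each variety has 1 library. With 7 reads in orange for rna47019 and 25 for AQUCO_01400068v1, depth limits the size of their ratios.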

Other observations

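Thioredoxins are small redox proteins whose plastid forms receive electrons from ferredoxin through ferredoxin-thioredoxin reductase. Most rows of the list matched on that name were lower in orange. Of 10 measured rows 1 was higher in orange, 7 were lower and 2 were under 2-fold, with a median log2 fold of -2.71, against -0.06 over all measured transcripts. The median was -2.05 with no minimum count and -2.07 with total-count scaling. The list includes ferredoxin-thioredoxin reductase itself, a thioredoxin-like protein and thioredoxin reductases, which use NADPH instead of ferredoxin. Most of the lower rows are of these kinds, so the majority does not rest on thioredoxins alone. Rows named thioredoxin itself went both ways. Both abundant rows named DCAR_022451 were lower in orange: rna32777 had 4604 reads in orange and 21707 in red (4.14-fold lower), and rna15707 had 334 in orange and 5850 in red (15.4-fold lower). Thioredoxin reductase DCAR_009067 was 7.71-fold lower in orange (196 reads in orange, 1721 in red). The thioredoxin DCAR_025980 (chosen with its values known) was 3.54-fold higher in orange (143 reads in orange, 46 in red; 2.52 to 5.05).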
